A study of Mus musculus with 6 samples.

Results

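Solute carriers are membrane proteins that move nutrients, metabolites, metals and ions across the cell surface and the membranes of organelles, and the symbols of their genes begin with Slc and a family number. All genes with a symbol of that form were taken, as the platform annotation names them for probe sets assigned to 1 gene. This gave 151 genes in 40 families, measured by 185 probe sets, of 8251 genes and 10833 such probe sets on the array. The name also took in 3 genes whose products are not transporters (Slc4a1ap, Slc9a3r1 and Slc9a3r2), and these were kept. Transcripts came from the tibialis anterior, which lifts the foot, taken from mice 48 h after a non-invasive bout of contractions. The eccentric pool came from muscles that performed 50 eccentric contractions, a type that stretches the muscle while it is active. The isometric pool came from muscles that performed 50 isometric contractions, a type without a change of length. Contralateral legs gave the control pool after only the contractions needed for a torque reading, and the labels do not say which exercised animals these legs came from. No genetic change is named for any group, and the sources used here do not give strain, sex or age.

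Each group was the RNA of 4 animals in 1 pool, put on 2 Affymetrix MGU74Av2 arrays lettered A and B. A group is therefore 1 biological sample, the SD between its arrays covers labelling and hybridisation only, and the design allows no p-value for eccentric or isometric exercise. Of the 151 genes, 74 lay above the detection floor (a signal of 120.8, the 40th percentile of all values) on all 6 arrays and 37 lay below it on all 6. A gene counted as measured in a comparison where some pool of the pair had both its arrays over the floor, which 100 genes did in some comparison and 51 in none. A gene was called higher or lower where the mean log2 signals were 1 or more apart, that is 2-fold, and both arrays of one pool lay on the same side of both arrays of the other. Median signals of the 6 arrays were 187 to 197. Over the measured solute carriers, array A minus array B had an SD on the log2 scale of 0.290 for the eccentric, 0.414 for the isometric and 0.396 for the control pool, so single values of the eccentric pool are the more precise ones. The 3' to 5' ratio of beta-actin, used to judge RNA quality, had a log2 of 0.44 in the eccentric, 0.21 in the isometric and 0.04 in the control pool. The 18S ribosomal RNA signal was 13046 and 13926 on eccentric A and B, 2358 and 32415 on isometric A and B, and 20448 and 3797 on control A and B. It differed widely between the arrays of the isometric and of the control pool, being higher on isometric B and control A, and counts below are given with and without these 2 arrays, chosen after the data were seen.

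As background, the Slc25 family sits in the inner mitochondrial membrane and exchanges nucleotides, phosphate and metabolites between matrix and cytosol. Facilitative glucose transporters form the Slc2 family, with Slc2a4 (GLUT4) as the insulin- and contraction-responsive form of muscle, and the Slc16 family includes the monocarboxylate transporters that carry lactate. Amino acids enter mainly through the Slc1, Slc7 and Slc38 families, some Slc7 members working only as pairs with the glycoprotein Slc3a2 (CD98 heavy chain). Infiltrating leukocytes carry solute carriers of their own, among them Slc11a1 (NRAMP1), a divalent metal transporter of the phagosome of macrophages.

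The genes shown are the called ones above the floor on all 6 arrays with 1 RefSeq start site in the GRCm38.p6 assembly. For each, the 150 bases before that start are given, 5' to 3' on the gene's own strand. The calls of these genes go in opposite directions, though in different comparisons. Slc11a1 was called higher in the eccentric than in the control pool and lies on the plus strand (chr1:74375053-74375202). Slc25a11 was called lower in the eccentric than in the isometric pool and lies on the minus strand (chr11:70647040-70647189). Capitals mark a match to AAGGTCA, the core site of the estrogen-related receptors, which starts 144 bases before the start of Slc11a1.
Slc11a1: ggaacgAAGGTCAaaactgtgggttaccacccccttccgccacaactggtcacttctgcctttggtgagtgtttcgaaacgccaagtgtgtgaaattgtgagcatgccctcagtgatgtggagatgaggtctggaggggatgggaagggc
Slc25a11: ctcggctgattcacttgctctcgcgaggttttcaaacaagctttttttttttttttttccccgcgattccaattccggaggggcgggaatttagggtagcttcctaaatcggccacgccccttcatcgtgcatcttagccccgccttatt
Both strands were searched for AAGGTCA, for GAGGAA (bound by ETS factors) and for CACGTG (the E-box), which do not overlap in these windows. The window of Slc25a11 held none of them and that of Slc11a1 held no GAGGAA or CACGTG. Over 32851 mouse start sites the shares with a match were 2.31% for AAGGTCA, 14.5% for GAGGAA and 4.30% for CACGTG. Over the 175 starts listed for 124 of the solute carriers these shares were 1.71%, 8.57% and 8%. A match is a run of letters and was not tested for binding.

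In the eccentric against the control pool, 4 of 95 measured solute carriers were called higher and 1 was called lower. The higher ones were Slc11a1, the amino acid transporter Slc7a7, the choline transporter Slc44a1 and the monocarboxylate transporter Slc16a8, and the lower one was Slc37a4, the glucose 6-phosphate carrier of the endoplasmic reticulum. Over all 5682 genes measured in this comparison 5.16% were called higher and 1.06% lower, so the members' shares lie near those of the array as a whole. The median log2 difference of the solute carriers was 0.10, beside -0.02 for all genes, and the class medians were -0.16 in the mitochondrial carriers, -0.13 in the glucose transporters and 0.19 in the amino acid transporters.

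In the isometric against the control pool, 1 of 96 measured solute carriers was called higher and 0 lower. This was Slc48a1, a haem transporter of the endosome and lysosome. Over 5574 genes 0.915% were called higher and 0.323% lower, and the median log2 difference was 0.01 for the solute carriers and -0.01 for all genes. In the eccentric against the isometric pool, 2 of 98 were called higher (Slc7a7 and Slc44a1) and 4 lower (Slc25a11, Slc25a25, Slc37a4 and Slc48a1). The shares over 5622 genes were 1.73% higher and 0.676% lower, and the medians were 0.08 for the solute carriers and 0.02 for all genes. The 3 comparisons share pools, so their values are not independent of each other. Without isometric B and control A the counts were 4 higher and 6 lower for eccentric against control, 0 higher and 2 lower for isometric against control, and 2 higher and 3 lower for eccentric against isometric. Over all genes these counts were 289 and 80, 81 and 55, and 133 and 71 in the same order. With all arrays they were 293 and 60, 51 and 18, and 97 and 38, so lower calls over all genes rose in each comparison. Lower calls of the solute carriers went from 1 to 6 for eccentric against control and from 0 to 2 for isometric against control. For eccentric against isometric they went from 4 to 3. The 6 lower solute carriers were Slc37a4, Slc25a25, Slc35g3, Slc25a3, Slc25a47 and Slc1a4, whose values rest on control B as the only control array.

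**Figure D1:**
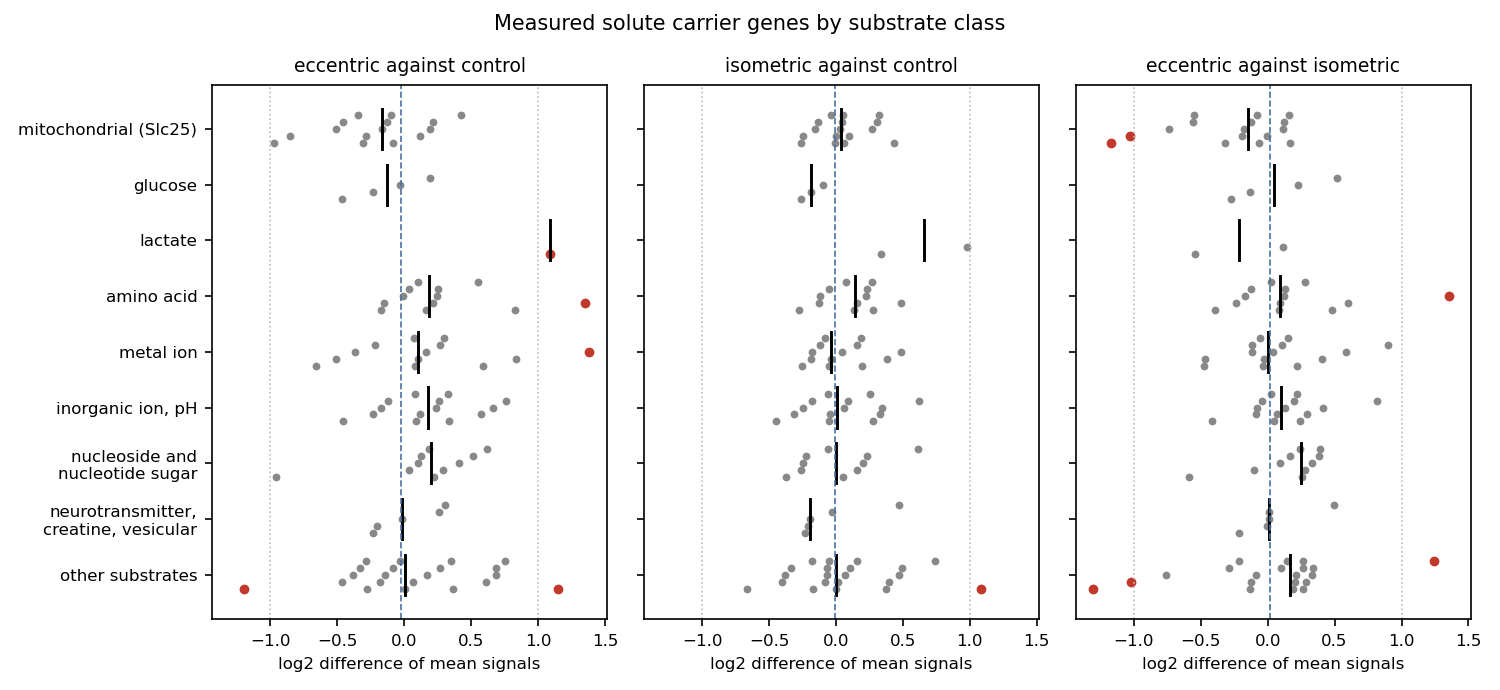
Difference of mean log2 signal (x axis) of each measured solute carrier, by substrate class (rows), for eccentric against control, isometric against control and eccentric against isometric. Each point is a gene, red where called, the bar is the class median, the dashed line the median of all genes, and the dotted lines mark 2-fold. The mitochondrial row has its median at -0.16, 0.04 and -0.15 in these comparisons, and the amino acid row at 0.19, 0.14 and 0.09.

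The mitochondrial carriers had the lowest class median of the eccentric against the control pool, at -0.16. Of 20 Slc25 genes 15 were measured against the control pool, and 11 of them had differences below 0, with a range of -0.97 to 0.43 and none past the 2-fold rule. In 8 of the 15 both eccentric arrays lay below both control arrays and in 2 both lay above. Over all genes 2950 of 5682 had differences below 0, 31% had both eccentric arrays below both control arrays and 30.8% had both above. Against the isometric pool 12 of 16 measured Slc25 genes had differences below 0, 2 were called lower, 8 had non-overlapping lower values and 1 non-overlapping higher values. Over all genes 2710 of 5622 had differences below 0 and 0.676% were called lower. The shares over all genes without overlap were 25.1% lower and 28.5% higher. Against this, isometric and control pools were close in the Slc25 genes, with a median of 0.04, 0 of 16 called, 2 higher and 1 lower without overlap, beside 18.9% and 18.4% of all genes. Without isometric B and control A the Slc25 medians were -0.32 for eccentric against control, -0.12 for isometric against control and -0.085 for eccentric against isometric.

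Slc25a11, the oxoglutarate and malate exchanger of the malate-aspartate shuttle, had signals of 2494 and 2500 on the eccentric arrays, 6162 and 4231 on the isometric arrays and 5403 and 4431 on the control arrays. Both eccentric arrays lay below all others, and the isometric and control values overlapped. It was 2.04-fold lower in the eccentric than in the isometric pool (log2 difference -1.03) and, at -0.97 against the control pool, just missed the 2-fold rule. Without isometric A the difference from the isometric pool was -0.76 and the call was lost.

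Slc25a25, a calcium-regulated exchanger of ATP-magnesium for phosphate, had 877 and 919 on the eccentric arrays, 1966 and 2083 on the isometric arrays and 1444 and 1823 on the control arrays. The 3 pools did not overlap, with the eccentric pool lowest and the isometric pool highest. It was 2.25-fold lower in the eccentric than in the isometric pool, at a log2 difference of -1.17, and the call held without each of the 4 arrays in turn. Against the control pool its log2 differences were -0.85 for eccentric and 0.32 for isometric, neither of them called, and the first passed the rule at -1.02 where control A was left out.

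The carnitine-acylcarnitine carrier Slc25a20, which brings fatty acids into the matrix, had 1517 and 1292 on the eccentric arrays, 2120 and 2004 on the isometric arrays and 2018 and 1965 on the control arrays. Its eccentric arrays lay below the others without overlap, at log2 differences of -0.51 from the control and -0.56 from the isometric pool that were not called. Slc25a4, the adenine nucleotide translocator of muscle, had 20236 and 19860 on the eccentric arrays, 21630 and 28981 on the isometric arrays and 28937 and 26198 on the control arrays. Its eccentric values were below the other 4, by -0.46 against control and -0.32 against isometric on the log2 scale, and the isometric arrays lay on either side of both control arrays. The ornithine carrier Slc25a15 had 428 and 390 on the eccentric arrays, 545 and 658 on the isometric arrays and 453 and 544 on the control arrays. The eccentric pool was lowest, at -0.55 against the isometric pool, while the nearest isometric and control arrays were practically equal.

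Slc25a47, a dim member, had 105 and 199 on the eccentric arrays, 231 and 288 on the isometric arrays and 108 and 361 on the control arrays. Its eccentric arrays lay below both isometric arrays (-0.74, not called), its control arrays differed widely, and it was not measured between the eccentric and control pools. Slc25a28, a mitochondrial iron importer, differed by -0.31 between the eccentric and control pools, and Slc25a39, a glutathione carrier, by -0.16. Slc25a1, the citrate carrier, had 636 and 618 on the eccentric arrays, 579 and 580 on the isometric arrays and 539 and 621 on the control arrays, a difference of 0.12 from control. The peroxisomal member Slc25a17 had 655 and 698, 701 and 551, and 579 and 586 on the eccentric, isometric and control arrays, and its eccentric arrays lay above the control arrays (0.21). The highest difference of the family was 0.43, for Slc25a44, a carrier of branched-chain amino acids, with 248 and 251 on the eccentric, 220 and 285 on the isometric and 144 and 240 on the control arrays. Slc25a5, the translocator of many tissues, was read by 3 probe sets whose eccentric against control differences were 0.19, 0.50 and -0.34, so that no direction was given. The phosphate carrier Slc25a3 was read at 212 and 129, 289 and 123, and 121 and 362 in the same order of pools, close to the floor, and its arrays disagreed within each pool. Slc25a10, Slc25a14, Slc25a48 and Slc25a53 were not measured, and Slc25a12, Slc25a13 and Slc25a22 were not analysed here.

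**Figure D2:**
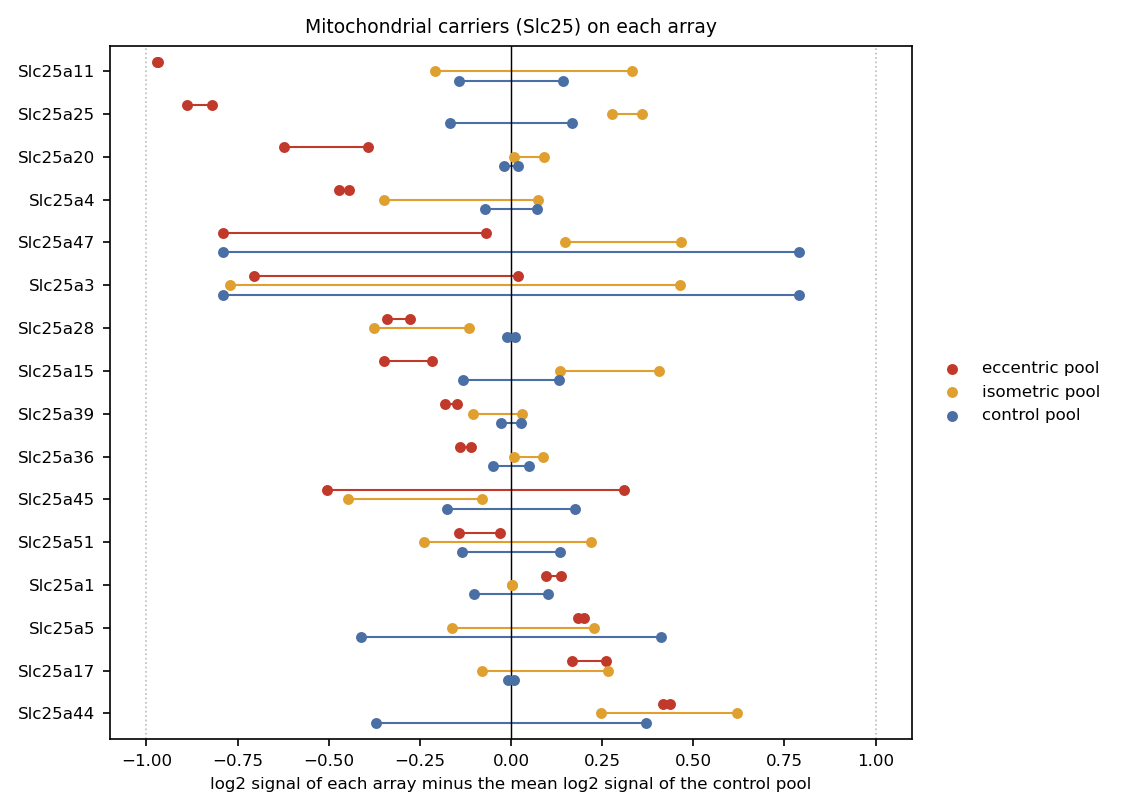
Signal on each array relative to the mean of the control pool, as log2 (x axis), for the Slc25 genes measured in a comparison (rows), with eccentric arrays in red, isometric in yellow, control in blue and dotted lines at 2-fold. The eccentric points of Slc25a11 and Slc25a25 sit farthest left of their control points among genes well above the floor, at differences of -0.97 and -0.85.

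A list of 37 mitochondrial enzymes and respiratory subunits was set beside the carriers. Of its 29 measured genes 4 were called lower in the eccentric than in the control pool, beside 1.06% of all genes. All 29 had differences below 0, beside 2950 of 5682 genes, and the median was -0.61, beside -0.16 for the Slc25 genes. Against the isometric pool 1 of 29 was called lower, beside 0.676% of all genes, with a median of -0.49. Between isometric and control pools 0 were called, with a median of -0.08. A second list, of 10 genes of the mitochondrial outer membrane, had 6 measured in each comparison and 0 called. Between the eccentric and control pools 3 of these 6 were above 0 and 3 below, with a median of 0.13. Its medians were -0.12 for eccentric against isometric and 0.01 for isometric against control. The summed signal of 9 skeletal muscle markers was 211501 and 206891 on the eccentric arrays, 205828 and 282918 on the isometric arrays and 288386 and 233179 on the control arrays. All 9 had differences below 0 between eccentric and control pools, with 0 called and a median of -0.28, and none was below the floor on all arrays. In whole muscle, fewer fibres and less RNA per fibre cannot be told apart. The part of muscle RNA content and of the beta-actin ratio in the Slc25 values was not tested.

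Glucose transporters showed no call in any comparison. Of 7 genes of this class 4 were measured between the eccentric and control pools. Slc2a4 (GLUT4) had signals of 4363 and 3869 on the eccentric arrays, 4456 and 5555 on the isometric arrays and 5820 and 5498 on the control arrays. Its eccentric arrays lay below both control arrays and below both isometric arrays, at log2 differences of -0.46 and -0.28, and isometric A lay close to eccentric A. Slc2a8 (GLUT8), an intracellular form, had 597 and 475, 496 and 688, and 620 and 630 on the eccentric, isometric and control arrays, with both eccentric arrays below both control arrays (-0.23) and overlapping isometric values. Slc2a1 (GLUT1), the ubiquitous form, had 154 and 195 on the eccentric arrays, 118 and 53.3 on the isometric arrays and 55.6 and 190 on the control arrays, around the floor. Slc2a3 (GLUT3) was likewise dim and its pools overlapped, while Slc2a2, Slc2a5 and Slc5a1 were not measured.

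Slc37a4, which moves glucose 6-phosphate into the endoplasmic reticulum and belongs to sugar metabolism rather than to uptake, had the largest downward difference of any solute carrier. Its signals were 1056 and 1428 on the eccentric arrays, 3271 and 2806 on the isometric arrays and 2633 and 3008 on the control arrays. Both eccentric arrays lay far below the other 4, among which isometric and control values overlapped. It was 2.29-fold lower in the eccentric than in the control pool (log2 difference -1.20) and 2.47-fold lower than in the isometric pool (-1.30). Without eccentric A the first difference was -0.98 and no longer called, and the second stayed called at -1.08.

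Among the lactate carriers, Slc16a8 (MCT3), known from retinal pigment epithelium, had 258 and 257 on the eccentric arrays, 214 and 264 on the isometric arrays and 75.9 and 43.3 on the control arrays. Both exercised pools lay above the floor and both control arrays below it. It was at least 2.13-fold higher in the eccentric than in the control pool, which was called, and at least 1.97-fold higher in the isometric than in the control pool, which was not. The eccentric and isometric pools overlapped, at a difference of 0.11. Slc16a1 (MCT1) had 117 and 131, 237 and 142, and 99.1 and 175 on the eccentric, isometric and control arrays, around the floor, with no call. Slc16a7 was not measured, and Slc16a3 (MCT4), the lactate exporter of fast fibres, was not analysed here.

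Partners of glucose and lactate transport gave context. Bsg (basigin), which escorts MCT1 and MCT4 to the surface, had 4045 and 4339 on the eccentric arrays, 6376 and 6727 on the isometric arrays and 7359 and 6412 on the control arrays, a log2 difference of -0.71 from control that was not called. Emb (embigin), an escort of other monocarboxylate transporters, had 276 and 304, 164 and 171, and 108 and 124 on the same arrays and was called higher in the eccentric than in the control pool, at 1.24. Of 11 measured genes of that list, Emb and Irs2 were called higher, 0 were called lower, and the median was -0.29.

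**Figure D3:**
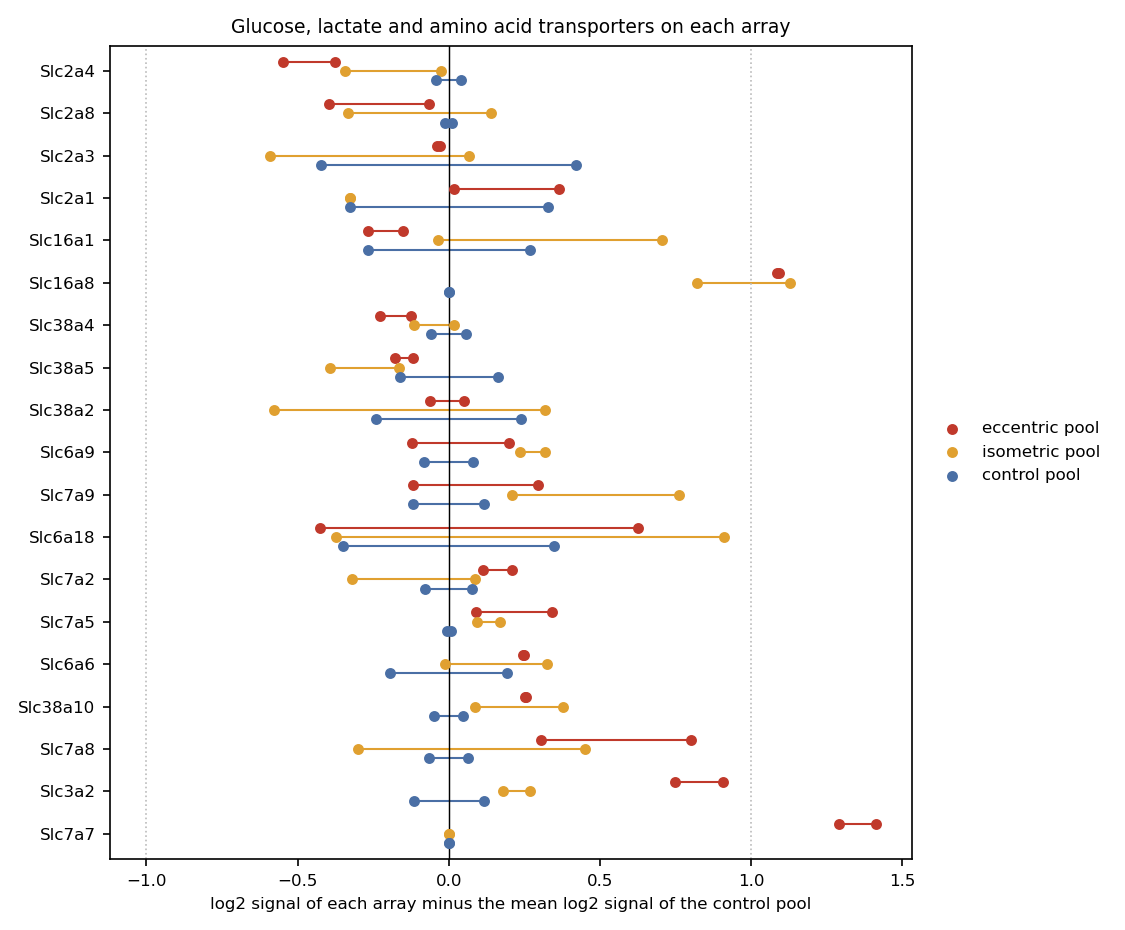
Signal on each array relative to the mean of the control pool, as log2 (x axis), for the measured glucose, lactate and amino acid transporters (rows), with eccentric arrays in red, isometric in yellow, control in blue and dotted lines at 2-fold. Values below the floor are drawn at it. Slc7a7 and Slc16a8 have control arrays below the floor, so their distance is a lower bound, and Slc3a2 has both eccentric points to the right of the other 4.

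Of the amino acid transporters 1 was called, Slc7a7. Of 24 genes 12 were measured against the control pool, 9 of these had differences above 0, 7 were higher and 1 lower without overlap, beside 30.8% and 31% of all genes, and the median was 0.19. Slc7a7 passed the filter on low values through the eccentric pool alone, so its place in these counts was favoured. Against the isometric pool 9 of 13 were above 0 with 3 higher and 2 lower without overlap, which is no more than the 28.5% and 25.1% of all genes. Between the isometric and control pools 8 of 12 were above 0, with a median of 0.14. There 5 were higher and 1 lower without overlap, beside 18.9% and 18.4% of all genes.

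Slc7a7 (y+LAT1), the light chain that exchanges cationic for neutral amino acids, had 296 and 322 on the eccentric arrays, 106 and 46.6 on the isometric arrays and 51.6 and 47.7 on the control arrays. It exceeded the floor in the eccentric pool alone and was at least 2.55-fold higher there than in either other pool. Slc3a2, the heavy chain with which Slc7a7 and Slc7a5 pair, had 1527 and 1705 on the eccentric arrays, 1030 and 1095 on the isometric arrays and 839 and 985 on the control arrays. The 3 pools did not overlap, and the eccentric difference was 0.83 from control and 0.60 from isometric, short of the 2-fold rule. Slc7a5 (LAT1), the leucine transporter that pairs with it, had 1327 and 1114, 1118 and 1178, and 1042 and 1052 on the eccentric, isometric and control arrays, a difference of 0.22 from control.

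Slc7a8 (LAT2) had 185 and 261 on the eccentric arrays, 205 and 121 on the isometric arrays and 143 and 156 on the control arrays, at 0.55 against control. The cationic transporter Slc7a2 differed by 0.16. Of the sodium-coupled neutral transporters, Slc38a2 (SNAT2) had 1071 and 1158, 1396 and 748, and 947 and 1320 on the eccentric, isometric and control arrays, fully overlapping. Slc38a4 had 933 and 868 on the eccentric arrays against 1059 and 977 on the control arrays, the class's 1 lower value without overlap. Slc38a5 and Slc38a10 differed from control by -0.15 and 0.25. The taurine transporter Slc6a6 had 2354 and 2356 on the eccentric arrays, 2484 and 1965 on the isometric arrays and 2267 and 1734 on the control arrays, at 0.25 against control, and its dimmer probe set stood at 0.87 without a call. The glycine transporter Slc6a9 differed by 0.04. The glutamate and neutral carriers Slc1a1, Slc1a4 and Slc1a5 were not measured, nor were Slc7a1, Slc7a3, Slc7a6 and the cystine transporter Slc7a11.

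Genes of the response to amino acid shortage, which includes Slc7a11 and Slc3a2 among its known targets, were read from a separate list. Of 9 measured genes 2 were called higher in the eccentric than in the control pool, the serine synthesis enzyme Psat1 at 1.70 and the folate enzyme Mthfd2 at 1.65, and 0 lower. Phgdh, the enzyme before Psat1 in serine synthesis, had 121 and 88.9 on the eccentric arrays against 213 and 206 on the control arrays (-0.79, not called), 4 of the 9 genes were below 0, and the median was 0.05. The factor Atf4 itself and asparagine synthetase, Asns, differed by 0.05 and -0.04 between these pools. Between the isometric and control pools 1 of 8 measured genes was called higher, Psat1 at 1.07, and 0 lower. There 5 were above 0 and 3 below, with a median of 0.18. Asns stood at 0.56 without overlap and Atf4 at -0.24, neither called.

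Among the 16 metal transporters, Slc11a1 was the called gene. It had 556 and 497 on the eccentric arrays, 286 and 278 on the isometric arrays and 185 and 219 on the control arrays, above the floor on all 6. The pools did not overlap and ran from eccentric through isometric to control. It was 2.61-fold higher in the eccentric than in the control pool (1.38), and its differences of 0.48 between isometric and control and 0.90 between eccentric and isometric were not called. Of 7 zinc importers of the Slc39 family 5 were measured between the eccentric and control pools and 0 were called. Slc39a6, which passed the filter through the eccentric pool, had 240 and 211 on the eccentric arrays, 187 and 90.4 on the isometric arrays and 132 and 102 on the control arrays (0.84 against control, not called). Of 4 measured zinc exporters of the Slc30 family 3 were below 0, Slc30a9 most so at 345 and 358 on the eccentric arrays, 600 and 394 on the isometric arrays and 484 and 635 on the control arrays (-0.66). Slc39a4 had a dimmer probe set called lower in the isometric than in the control pool, at -1.10, where its brighter one stood at 0.16.

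Markers of macrophages moved with Slc11a1. The summed signal of 11 markers was 23687 and 23430 on the eccentric arrays, 13711 and 13460 on the isometric arrays and 7680 and 8049 on the control arrays. Of 10 measured, 9 were called higher in the eccentric than in the control pool (median 1.65), 3 in the isometric than in the control pool (0.71) and 5 in the eccentric than in the isometric pool (0.94), and none of the 11 was below the floor on all arrays. Cd68, a lysosomal glycoprotein, averaged 2336 ± 32 in the eccentric, 1306 ± 352 in the isometric and 645 ± 106 in the control pool (SD, n = 2 arrays of 1 pool). The order of pools was that of Slc11a1, and Slc7a7 and Slc44a1 were high in the eccentric pool alone. Of 7 neutrophil markers 2 of 5 measured, S100a8 and S100a9, were called higher in the eccentric than in the control pool, while 3 were below 0, Csf3r at -0.88 without overlap among them, and the median was -0.08. The defining markers Ly6g and Ngp were below the floor on all arrays. How much of the signal of Slc11a1, Slc7a7 or Slc44a1 came from macrophages was not tested.

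**Figure D4:**
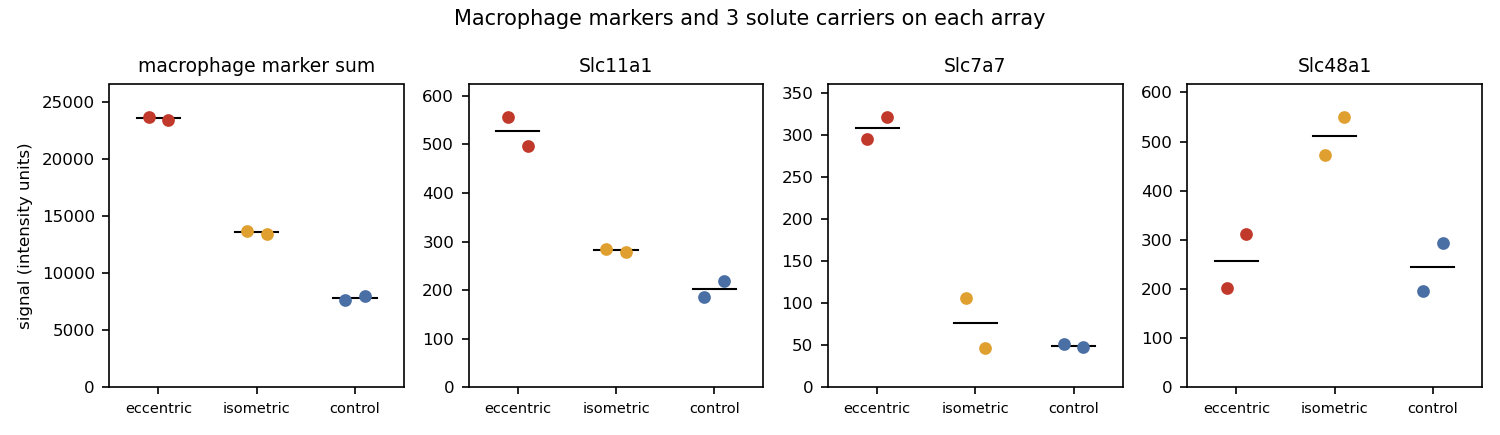
Summed signal of the 11 macrophage markers and signals of Slc11a1, Slc7a7 and Slc48a1 (y axes, linear from 0) on the 2 arrays of the eccentric, isometric and control pools, one point an array, with a bar at the mean. Slc48a1 peaks in the isometric pool, while the marker sum and Slc11a1 run in one order of pools, 23687 and 556 on eccentric A against 7680 and 185 on control A.

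Of the remaining classes, Slc44a1 (CTL1), a choline transporter of the plasma membrane and mitochondria, had 309 and 264 on the eccentric arrays, 90.2 and 102 on the isometric arrays and 137 and 112 on the control arrays. Both eccentric arrays exceeded the other 4, all of which lay near or below the floor. It was 2.22-fold higher in the eccentric than in the control pool and at least 2.36-fold higher than in the isometric pool. Slc44a4 of the same family had 717 and 716 on the eccentric arrays, 619 and 576 on the isometric arrays and 754 and 831 on the control arrays, and was lowest in the isometric pool (-0.41 against control, not called).

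Slc48a1 (HRG1), which exports haem from the lysosome, had 202 and 313 on the eccentric arrays, 473 and 550 on the isometric arrays and 196 and 295 on the control arrays. Both isometric arrays lay above the other 4, which overlapped. It was 2.12-fold higher in the isometric than in the control pool and 2.03-fold lower in the eccentric than in the isometric pool. The first call was lost without isometric B (0.98) or control A (0.79), and the other without eccentric A (-0.70) or isometric B (-0.91). Of 4 red blood cell markers on the array, from a list of 8, 3 were measured between isometric and control pools and 0 were called. The median was -0.15, with Alas2 at -0.57 without overlap, Hba-a1 at -0.15 and Ank1 at 0.05.

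**Figure D5:**
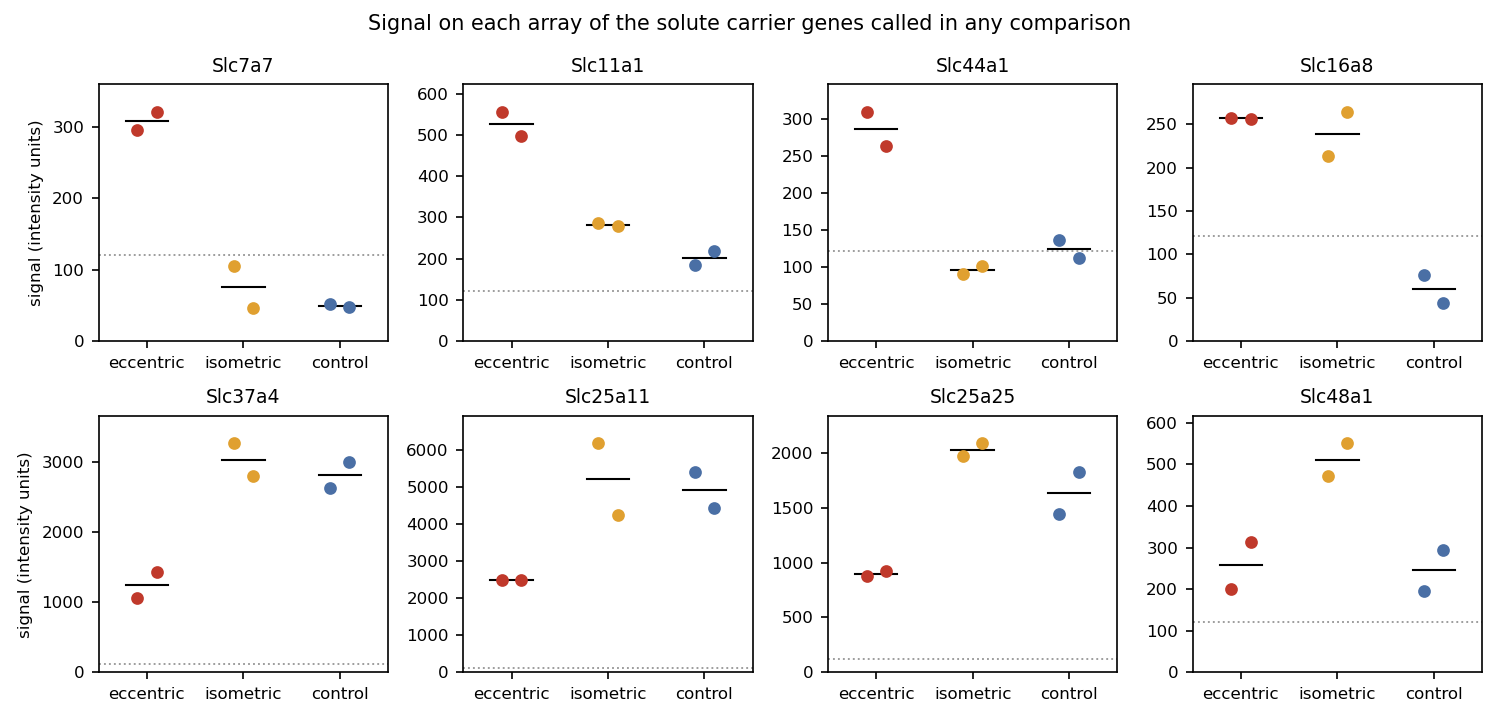
Signal (y axis, linear from 0) on the 2 arrays of the eccentric, isometric and control pools for the 8 solute carriers called in any comparison, one panel a gene, with the detection floor at 120.8 drawn as a dotted line and a bar at each mean. Slc7a7, Slc44a1 and Slc16a8 have control values near or below the line, and Slc37a4, Slc25a11 and Slc25a25 have their lowest values in the eccentric pool.

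The potassium chloride cotransporter Slc12a7 (KCC4) had 353 and 410 on the eccentric arrays, 230 and 202 on the isometric arrays and 226 and 223 on the control arrays, 0.76 above control and 0.82 above isometric, and its eccentric arrays stood clear of the rest. The nucleoside and nucleotide sugar transporters, most of them of the Golgi, had 9 of 10 measured genes above 0 in the eccentric against the control pool, 6 of them free of overlap, beside 48.1% above 0 and 30.8% higher without overlap over all genes, with a median of 0.20 and no call. The exception was Slc35g3, at 128 and 162 on the eccentric arrays, 117 and 388 on the isometric arrays and 262 and 298 on the control arrays (-0.96), with isometric arrays on either side of both other pools. Slc35a1, the CMP-sialic acid transporter, had 204 and 217, 181 and 281, and 136 and 160 on the eccentric, isometric and control arrays.

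The largest uncalled difference of the isometric pool from control was that of Slc16a8, described above, at 0.98 or more. The next largest were in genes with low signals on some arrays. The phosphate transporter Slc20a1 had 193 and 336, 295 and 233, and 134 and 217 on the eccentric, isometric and control arrays, and Slc22a17, a receptor for lipocalin, had 307 and 355, 292 and 451, and 160 and 295. These stood at 0.62 and 0.74 for isometric against control. The organic anion transporter Slc22a6 stood lowest, at -0.66, with 63.4 and 127 on the isometric arrays and 194 and 198 on the control arrays. The sodium-calcium exchanger Slc8a1 had 450 and 384 on the eccentric arrays, 405 and 316 on the isometric arrays and 435 and 548 on the control arrays (-0.45 for isometric against control). The orphan Slc23a3 had log2 differences of -0.46 and -0.38 for eccentric and isometric against control, and -0.79 and -0.78 by its dimmer probe set. The fatty acid transporter Slc27a1 had 382 and 245 on the eccentric arrays against 583 and 461 on the isometric arrays, at -0.76. The creatine transporter Slc6a8 was nearly level, with 1357 and 1502, 1325 and 1518, and 1439 and 1452 on the eccentric, isometric and control arrays, and was chosen for mention after its values were seen.

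A fit of limma to the 6 arrays, with Benjamini-Hochberg adjustment over all genes measured in a comparison, compares these pools by the spread between arrays and not the conditions. Between the eccentric and control pools it called 6 solute carriers higher and 3 lower of 95, at an adjusted p under 0.05, beside 6.74% and 2.76% of all genes. The higher ones were Slc7a7 (adjusted p = 0.00707), Slc11a1 (0.00902), Slc44a1 (0.0120), Slc16a8 (0.0143), Slc3a2 (0.0291) and Slc12a7 (0.0347). The lower ones were Slc37a4 (0.0213), Slc25a25 (0.0310) and Slc25a11 (0.0463). Values below the floor were raised to it before the fit. Both control arrays of Slc7a7 and Slc16a8, and both isometric arrays of Slc7a7 and Slc44a1, thus had no spread, which can make their p-values too small. Slc7a7, Slc16a8 and Slc44a1 were also measured here through the eccentric pool alone, and Slc7a7 and Slc44a1 likewise against the isometric pool. Between the eccentric and isometric pools limma called Slc7a7 (0.0186) and Slc44a1 (0.0277) higher and Slc25a25 (0.0355) and Slc37a4 (0.0431) lower, beside 1.19% and 0.249% of all genes. Between the isometric and control pools limma called 0 of 96 in either direction, beside 0% and 0.0179% of all genes. Of the 96, 6 had an unadjusted p under 0.05, beside 577 of all 5574 genes.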

How the data were processed

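Total RNA of mouse tibialis anterior was hybridised to Affymetrix MGU74Av2 arrays, 2 for each of 3 pools. For each probe set the authors deposited a linear intensity on every array. How probes were background-corrected and summarised, and with which software, is not given in the sources used here. The deposited arrays had trimmed means of 500.32 to 500.35 with 2% removed at each end, so a shift shared by most genes would not show.

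Groups came from the sample titles. Each array was multiplied to 1 trimmed mean (factors up to 1.000022), values below the 40th percentile (120.8) were raised to it, and values were turned to log2. Affymetrix controls and probe sets without exactly 1 gene were left out, and the probe set with the largest average signal stood for each of the 29 members with several. Of the dimmer probe sets of members, 12 were measured in each comparison, and 5 (eccentric against control), 7 (isometric against control) and 5 (eccentric against isometric) had the opposite sign. A fold is a ratio of geometric means, written as at least N-fold where a pool lay below the floor on both arrays. Names and sequences came from the platform annotation and RefSeq tables (GRCm38.p6), where all 151 members were found with 0 symbols changed.

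The 3 comparisons used a size rule (2-fold, all 4 array pairings of 1 sign) with no p-value. The rule and the limma fit were also run on simulated arrays, with planted changes of 3-fold or more in genes over 2-fold above the floor. All calls of members here were under 3-fold and some were in genes near the floor, so this run does not cover them. The alternatives changed scaling, floor, filter, fold, probe set choice and the arrays used. The members, the substrate classes and all gene lists were chosen with earlier results of these data known. Named were all called members, the 5 highest and 5 lowest per comparison and a panel of muscle transporters; other members named were chosen after their values were seen. With 2 arrays per pool, the number of arrays limits the precision of every value. Python 3.11.15 (numpy 2.4.6, pandas 2.3.3, scipy 1.17.1, matplotlib 3.10.9) served for all but the limma fit (limma 3.58.1 in R 4.3.3).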

Additional observations from a re-analysis of the deposited data

Results flagged for a closer look

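Slc25a25 and Slc25a15 lay on opposite sides of the control pool in the exercised pools: both eccentric arrays were below, and both isometric arrays above, both control arrays. Their log2 differences between the eccentric and isometric pools were -1.17 for Slc25a25 and -0.55 for Slc25a15. For Slc25a15 this separation is nominal on the isometric side, with 544.8 on isometric A and 544.4 on control B. The difference between the responses was not tested, since each pool is 1 biological sample.

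A probe set assigned to both Slc22a28 and Slc22a30 was kept out of the comparisons because it names several genes. Its mean signal was 173 ± 23.9 in the eccentric pool and 85.2 ± 32 in the control pool (SD, n = 2 arrays of 1 pool), and both control arrays were below the floor. The log2 difference against that floor was 0.51, short of the 2-fold rule.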

How the results depend on the processing

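For eccentric against control, the 4 higher calls fell to 1 (Slc11a1) with the floor at the 55th percentile or a filter for signal above the floor on all 4 arrays, since Slc7a7, Slc16a8 and Slc44a1 have control values near or below the floor. With the floor at the 25th percentile 2 were lower and the Slc25 median was -0.30. A 1.5-fold threshold gave 13 higher and 5 lower, a 3-fold threshold 0 and 0. Leaving out 1 array gave 4 to 7 higher and 0 to 6 lower, with Slc25 medians of -0.32 to -0.075. The count of lower calls was lowest without eccentric A and highest without control A, and 7 were higher without control B. Over all genes, leaving out 1 array gave 289 to 365 higher and 78 to 119 lower, beside 293 and 60 with all arrays. Leaving out control A and isometric B, chosen after seeing the data, gave 6 lower and a median of -0.32.

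For isometric against control, quantile normalization and scaling to one median each gave 2 higher. The 25th percentile floor gave 3 higher and 3 lower, the 55th 0 higher, a 1.5-fold threshold 4 higher and 1 lower, a 3-fold threshold 0 higher, and counting every probe set 1 lower. Leaving out 1 array gave 0 to 4 higher, 0 to 1 lower and Slc25 medians of -0.065 to 0.11, so that median has no stable sign. With both arrays left out there were 0 higher, 2 lower and a median of -0.12. Over all genes, leaving out 1 array gave 51 to 133 higher and 31 to 73 lower, beside 51 and 18 with all arrays. For eccentric against isometric, the 55th percentile floor and the all-array filter each left 0 higher, a 1.5-fold threshold gave 5 higher, a 3-fold threshold 0 in either direction, and no filter on dim genes a Slc25 median of -0.070. Leaving out 1 array gave 2 to 3 higher, 3 to 5 lower and medians of -0.20 to -0.085. Over all genes it gave 119 to 154 higher and 57 to 71 lower, beside 97 and 38 with all arrays. The cause of these shifts was not tested beyond the fewer genes or arrays each setting uses. All other settings run kept these counts within 1.5 times, and 1157 of 1232 values of single named genes moved by less than 1 SD between arrays, with 0 reversals among called values. Leaving out 1 array cannot move a value by more than this SD, which comes from the same arrays. A call needs all 4 pairings of 1 sign, so leaving out arrays cannot reverse it. Omitting the further scaling, with factors up to 1.000022, changes almost nothing. These figures are therefore partly fixed in advance and are a weak measure of stability.

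The sample titles do not say whether arrays of the same letter share a processing step. The A minus B differences of the pools correlated at 0.041 (eccentric and control), -0.146 (isometric and control) and -0.0455 (eccentric and isometric) across 4838 genes. Whether arrays were processed together was not tested. With limma, no block gave 3 lower for eccentric against control, 0 higher for isometric against control and 2 lower for eccentric against isometric. With the letter as a replicate block these were 1 lower (and 5 higher), 0 higher, and 0 higher and 0 lower. In the last comparison 15 members had an unadjusted p under 0.05, beside 1003 of 5622 genes. The block cut calls over all genes too. For eccentric against control these fell from 383 higher and 157 lower to 259 and 49 of 5682. For eccentric against isometric they fell from 67 higher and 14 lower to 8 and 0 of 5622. Crossing the letters for isometric against control, added after seeing the data, also gave 0, for members and for all genes.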
